A study of Mus musculus with 6 samples.

Results

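Mitochondrial ribosomal proteins are the protein part of the ribosome that works inside mitochondria. Their genes were taken as the protein-coding genes of the deposited table whose symbol starts with Mrpl (large subunit) or Mrps (small subunit) followed by a number. The rule found 77 of the 32244 listed genes, 48 named for the large subunit and 29 for the small one, and used no measured value. The names were checked against the ontology terms in the table: 76 of the 77 genes carried a mitochondrion term and 76 a ribosome term. Mrpl30 had no such term. The genes lay on 17 chromosomes.

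The mitochondrial ribosome translates only the few messages encoded in mitochondrial DNA, all of them for core proteins of the respiratory chain and ATP synthase. Its RNAs come from mitochondrial DNA, whereas every one of its proteins is encoded in the nucleus, made in the cytosol and imported. Compared with its bacterial relatives it has less RNA and more protein, and many subunits have no bacterial counterpart. White fat cells hold fewer mitochondria than brown fat cells but rely on them for lipid synthesis and fuel oxidation.

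RNA came from epididymal white fat, a visceral depot, of Eepd1 knockout mice (EKO) and wild-type mice (WT), both C57BL/6J and both on a high-fat diet for 3 months. Each genotype had 3 libraries, and the series title sets the work in a study of lipolysis and thermogenesis. The sources used here do not give the knockout allele, the cells in which it acts or the age of the mice. Nor is it stated that libraries of a genotype came from different animals, so the p-values below measure the spread between these libraries, which may in part be technical.

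Libraries held 17215072 to 18330206 counts. Levels are given in CPM, that is, counts divided by the TMM-scaled size of the library. Eepd1, the targeted gene, had 152, 47.7 and 116 CPM in EKO replicates 1, 2 and 3 and 244, 304 and 192 CPM in WT replicates 1, 2 and 3, at an edgeR adjusted p of 0.106. The genotypes did not overlap, but reads from outside a deleted part, which is unknown here, cannot check the labels. Fat-cell markers were lower in EKO and macrophage markers higher. The summed level of 10 adipocyte markers ranged between 2953 and 7890 CPM in EKO and between 11875 and 19849 CPM in WT, and that of 10 macrophage markers between 13468 and 21538 CPM in EKO and between 2048 and 5626 CPM in WT. WT replicate 2 stood apart: it had the most adipocyte and the least macrophage RNA, and 7 testis markers summed to 2211 CPM there, against 1.80 to 114 CPM in EKO and 4.77 and 31.5 CPM in WT replicates 3 and 1. Prm1, a sperm protamine gene among them, was at 0 in EKO replicate 1 and at 412 CPM in WT replicate 2. Summed endothelial markers ranged between 601 and 989 CPM in EKO and between 1263 and 1498 CPM in WT, mesothelial markers between 35.4 and 190 CPM in EKO and between 130 and 368 CPM in WT, and hepatocyte markers between 9.75 and 188 CPM in EKO and between 8.82 and 68.7 CPM in WT. In bulk tissue, fewer cells of a type and less RNA per cell cannot be told apart.

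The upstream regions of some of these genes are shown because the genes are spread over the genome and not gathered at a shared position. Mrpl46 and Mrps11 do overlap each other, with starts 412 bases apart on opposite strands. RefSeq windows of GRCm38.p6 were available for 68 of the 77 genes, 74 windows in all. Windows were not used for Mrpl13, Mrpl15, Mrpl19, Mrpl38, Mrpl4, Mrpl54, Mrps28, Mrps34 and Mrps35. Each sequence gives the 250 bases before a RefSeq gene start, 5′ to 3′ on the gene's strand. Capitals mark exact matches, on either strand, to a core motif of nuclear respiratory factor 1 (GCGCATGCG), of ETS factors such as GABP (CCGGAAG), of YY1 (AAGATGGCG) or of SP1 (GGGCGG). These factors are known as regulators of nuclear genes for mitochondria. The first 3 windows belong to the genes that were lowest in EKO relative to WT and have a window: Mrps6 at chr16:92058086-92058335 (plus strand), Mrpl49 at chr19:6057756-6058005 (minus strand) and Mrpl11 at chr19:4962056-4962305 (plus strand). Mrpl43 at chr19:45006443-45006692 (minus strand) was among the highest in EKO, and Mrpl32 at chr13:14613038-14613287 (minus strand) has the most matches to the nuclear respiratory factor 1 motif.
Mrps6: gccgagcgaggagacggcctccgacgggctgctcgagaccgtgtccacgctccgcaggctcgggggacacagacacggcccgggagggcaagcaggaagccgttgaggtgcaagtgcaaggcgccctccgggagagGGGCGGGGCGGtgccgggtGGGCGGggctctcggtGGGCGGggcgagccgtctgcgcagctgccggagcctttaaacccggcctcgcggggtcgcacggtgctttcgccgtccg
Mrpl49: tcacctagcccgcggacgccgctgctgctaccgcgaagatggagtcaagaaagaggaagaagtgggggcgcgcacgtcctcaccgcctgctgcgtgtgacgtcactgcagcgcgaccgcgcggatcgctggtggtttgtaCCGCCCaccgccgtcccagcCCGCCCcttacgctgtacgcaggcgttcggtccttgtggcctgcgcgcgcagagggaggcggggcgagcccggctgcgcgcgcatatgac
Mrpl11: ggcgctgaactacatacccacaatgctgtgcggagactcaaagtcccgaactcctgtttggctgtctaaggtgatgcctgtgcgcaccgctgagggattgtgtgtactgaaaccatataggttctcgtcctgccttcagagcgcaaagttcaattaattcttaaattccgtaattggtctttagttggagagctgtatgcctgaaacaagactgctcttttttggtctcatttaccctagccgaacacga
Mrpl43: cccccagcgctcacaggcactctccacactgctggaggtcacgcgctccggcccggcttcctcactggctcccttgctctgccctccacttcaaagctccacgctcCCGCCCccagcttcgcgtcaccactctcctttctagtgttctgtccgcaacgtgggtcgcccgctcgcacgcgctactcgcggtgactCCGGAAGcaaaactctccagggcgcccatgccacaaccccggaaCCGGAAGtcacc
Mrpl32: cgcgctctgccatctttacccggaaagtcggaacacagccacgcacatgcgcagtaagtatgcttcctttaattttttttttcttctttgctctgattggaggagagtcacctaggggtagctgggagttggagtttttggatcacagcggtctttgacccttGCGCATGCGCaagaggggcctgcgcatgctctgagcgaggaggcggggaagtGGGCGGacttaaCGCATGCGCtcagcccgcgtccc

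Mrps6 and Mrpl49 held SP1 matches alone, 4 and 2 of them, and Mrpl11 held none of the 4 motifs. Mrpl43 held 2 ETS matches and 1 SP1 match. Mrpl32 held 3 matches to the nuclear respiratory factor 1 motif, of which 2 overlap because the motif's core reads the same on both strands. Over all 74 windows, 9.46% had the nuclear respiratory factor 1 motif, against 1.45% of 32851 windows of all genes. The ETS motif was in 23.0% of the windows of these genes and in 6.91% of all windows, the YY1 motif in 2.70% and in 0.606%, and the SP1 motif in 50.0% and in 32.7%. A match is a description of the letters and not evidence of binding. The log2 difference between EKO and WT had about the same median with and without a motif, at -0.11 for 7 genes with and -0.11 for 61 genes without the nuclear respiratory factor 1 motif, -0.09 for 17 with and -0.11 for 51 without the ETS motif, and -0.12 for 33 with and -0.11 for 35 without the SP1 motif.

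The genes of the mitochondrial ribosome differed little between the genotypes. All 77 passed the count filter, with 27 to 1189 counts per library. The edgeR quasi-likelihood test called 0 of them at an adjusted p under 0.05, as it called 0 of all 16121 genes tested (0.0%). The lowest adjusted p was 0.0662 among these genes and 0.0628 among all genes. At an unadjusted edgeR p under 0.05, 4 of the 77 were lower in EKO, where 13.8% of all genes were, and 1 was higher, where 18.9% of all genes were. limma-voom also called 0 of the 77 and 0 of all genes (0.0%). DESeq2 called 4 of the 77 (5.19%), where it called 21.0% of all genes, and limma-voom with sample quality weights called 2 (2.60%), where it called 25.4% of all genes. Differences were small: 75 of the 77 estimates lay within 1.5-fold, while 36.2% of all genes tested were at or beyond that size. The fitted log2 difference was below 0 for 56 genes and above 0 for 21, against 48.7% of all genes below 0. The median was -0.11 on the log2 scale (quartiles -0.21 and 0.02), with 0.02 over all genes tested. With library totals in place of TMM scaling the split was 66 to 11 and the median -0.20, with -0.08 over all genes.

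**Figure D1:**
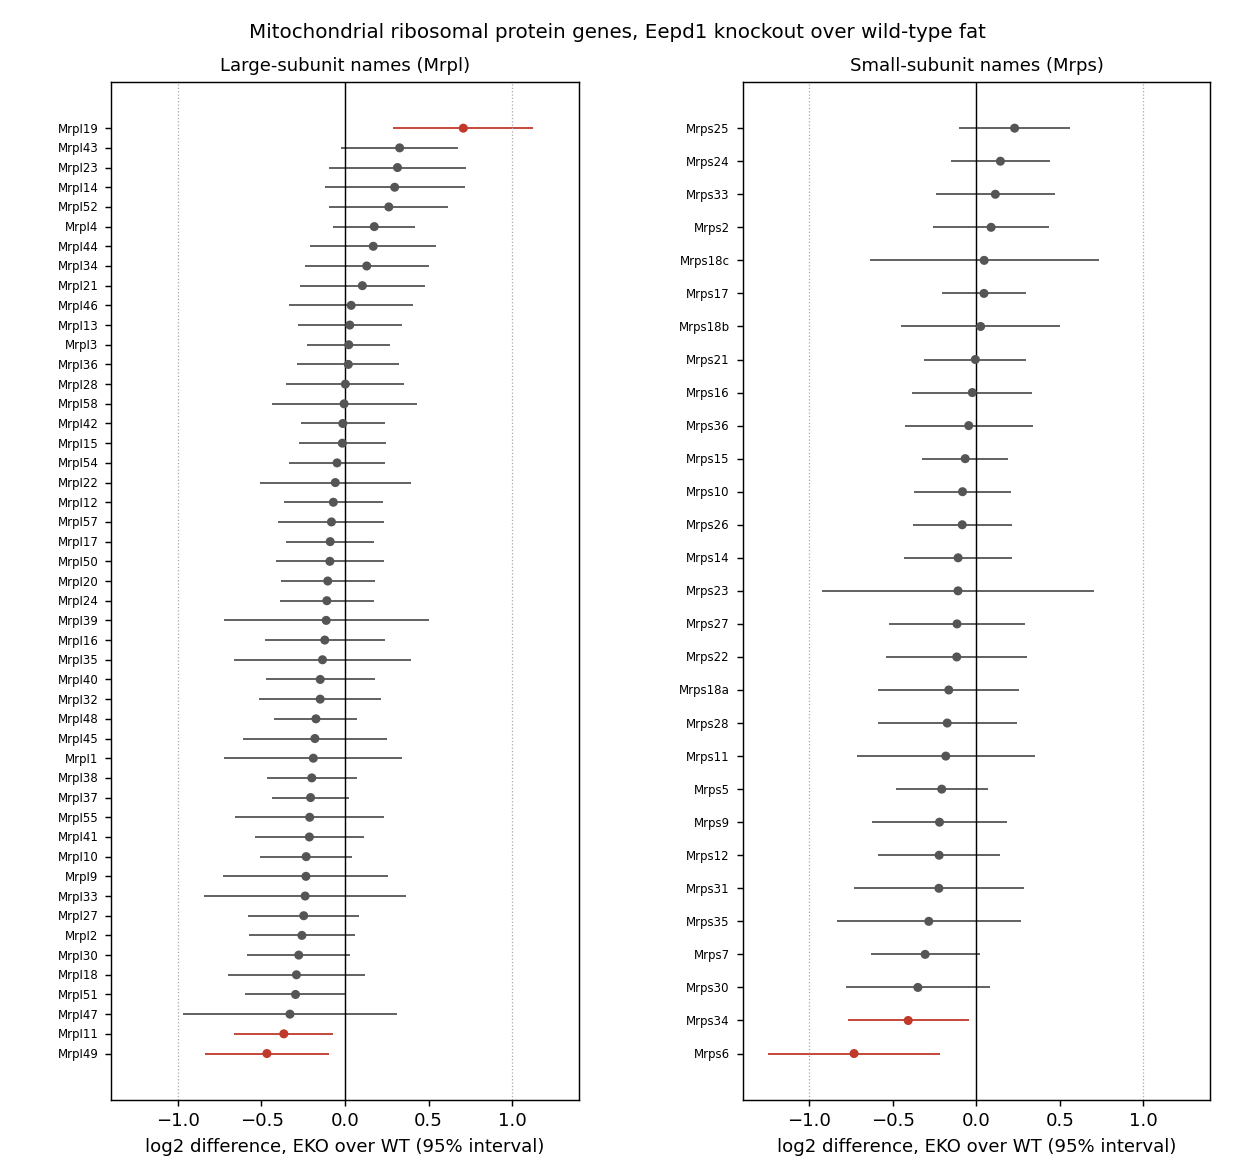
The fitted log2 difference between EKO and WT (x axis) is shown for each of the 77 genes (y axis), large-subunit names on the left and small-subunit names on the right, with bars for 95% intervals and red for an unadjusted edgeR p under 0.05. Most points lie slightly left of 0, Mrpl19 stands alone on the right at 0.71 and Mrps6 lies farthest left at -0.73.

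Their 95% intervals were narrow. For 75 genes the whole interval lay within 2-fold either way, as it did for 48.5% of all genes tested, and for 46 genes within 1.5-fold, as for 21.6% of all genes. Large-subunit and small-subunit genes had like medians, -0.11 for both, with 34 of 48 and 22 of 29 below 0. The summed level of the 48 large-subunit genes was 1.97, 2.06 and 2.05 times that of the small-subunit genes in EKO replicates 1, 2 and 3, and 1.96, 2.00 and 1.96 times in WT replicates 1, 2 and 3. The ranges of this ratio overlapped.

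Summed over all 77 genes, the level was 1849, 1887 and 1914 CPM in EKO and 2015, 2163 and 1868 CPM in WT. The means were 1883 ± 33.0 CPM in EKO and 2015 ± 148 CPM in WT (SD, n = 3 each), 6.55% lower in EKO. After TMM scaling WT replicate 3 lay among the EKO libraries, so the groups overlapped, and WT replicate 2 gave the highest sum. As a share of raw counts, without TMM scaling, the 77 genes held 0.180%, 0.171% and 0.194% in EKO replicates 1, 2 and 3. The shares were 0.205%, 0.217% and 0.199% in WT replicates 1, 2 and 3. These shares did not overlap, though EKO replicate 3 and WT replicate 3 were close. WT replicate 2 also held the highest level of 40 of the 77 genes, while WT replicate 3 held the highest of 4 and the lowest of 14. Without WT replicate 2, 55 genes were below 0 and 22 above, with a median of -0.09 against 0.02 over all genes. Without EKO replicate 1, 50 genes were below 0 and 27 above, with a median of -0.046 against -0.003 over all genes, so the gap to all genes was -0.043 there and -0.13 with all 6 libraries. The part of the testis, adipocyte and macrophage RNA of WT replicate 2 in these levels was not tested.

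In 12 of the 77 genes (15.6%) every EKO library lay below every WT library, a pattern that 17.7% of all genes showed. In 5 genes (6.49%) every EKO library lay above every WT library, as in 25.1% of all genes. With all 6 libraries the first count is near its background and the second is below it. The 12 were Mrps6, Mrpl49, Mrps34, Mrpl11, Mrpl51, Mrpl30, Mrpl27, Mrpl10, Mrpl41, Mrps5, Mrpl37 and Mrpl48, and the 5 were Mrpl19, Mrpl43, Mrpl14, Mrps25 and Mrpl4. They are named for completeness after their values were seen. The first count was 28 without WT replicate 3, 36.4% of the 77 against 23.6% of all genes, and so above its background there. It was 19 without EKO replicate 3 (24.7% against 23.4%). Without any other single library it was 13 to 17, that is 16.9% to 22.1% of the 77, where 19.7% to 23.7% of all genes showed the pattern.

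Among the small-subunit genes, Mrps6 had the largest difference. It encodes the relative of bacterial ribosomal protein S6, on the platform of the subunit, and lies on chromosome 16 from 92058270 to 92112227 (GRCm38, plus strand). Its levels were 22.1, 17.1 and 14.3 CPM in EKO and 35.4, 25.9 and 27.6 CPM in WT. All EKO values lay below all WT values, with a wide spread inside each genotype. The fit gave a log2 difference of -0.73 ± 0.21 (SE), 1.66-fold lower in EKO, at an edgeR adjusted p of 0.0782. The adjusted p ranged between 0.0179 with sample quality weights and 0.246 over the alternative settings.

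Slc5a3, the gene of a myo-inositol transporter, lies inside the span of Mrps6. It had 6585 counts over the 6 libraries against 2530 for Mrps6, and averaged 51.3 ± 4.64 CPM in EKO and 72.8 ± 12.2 CPM in WT (SD, n = 3 each). Its log2 difference was -0.50 ± 0.15 (SE; edgeR adjusted p of 0.0822), the same direction as Mrps6. The sources used here do not give the strand setting of the counting, and how far reads of one gene were counted for the other was not tested.

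Mrps34, a subunit with no bacterial counterpart that human small subunits need for stability, was the other small-subunit gene with an unadjusted p under 0.05. It stood at 12.6, 13.1 and 15.3 CPM in EKO and at 18.8, 18.5 and 17.2 CPM in WT, without overlap. The log2 difference was -0.41 ± 0.15 (SE), with an edgeR adjusted p of 0.121. Mapk8ip3, a longer and more abundant gene that overlaps it, differed by -0.06 on the log2 scale.

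Other small-subunit genes stood closer to 0. Mrps7, the relative of bacterial S7 that binds the 3′ domain of the small ribosomal RNA, had the most counts of them, at 42.5, 36.8 and 42.7 CPM in EKO and 55.6, 52.7 and 42.6 CPM in WT. Its highest EKO library and its lowest WT library were level, and the log2 difference was -0.31 ± 0.14 (SE). Mif4gd and Gga3, which overlap it, differed by -0.57 ± 0.17 and 0.70 ± 0.26 (SE) on the log2 scale. Mif4gd had 5185 counts over the 6 libraries against 4821 for Mrps7, and how far these genes share reads was not tested. Mrps5, whose mutation in mice makes mitochondrial translation less accurate, averaged 28.7 ± 1.27 CPM in EKO and 33.2 ± 3.03 CPM in WT (SD, n = 3 each). Mrps12, the relative of the decoding-centre protein S12, averaged 16.4 ± 1.97 CPM in EKO and 19.1 ± 1.04 CPM in WT, and Mrps14, the relative of S14, 29.4 ± 2.97 CPM in EKO and 31.7 ± 3.27 CPM in WT. Mrps15 and Mrps17, relatives of the primary RNA-binding proteins S15 and S17, were the next most abundant by counts. Mrps15 averaged 39.1 ± 1.23 CPM in EKO and 41.0 ± 4.11 CPM in WT, and Mrps17 averaged 37.8 ± 2.89 CPM in EKO and 36.7 ± 1.62 CPM in WT. The sign of the difference changed with the scaling for Mrps17 and with sample quality weights for Mrps15. Mrps11, among the genes with the fewest counts, averaged 7.26 ± 1.46 CPM in EKO and 8.25 ± 0.607 CPM in WT.

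Mammals have 3 relatives of bacterial S18, each in its own place in the ribosome. Mrps18a, which sits in the large subunit despite its name, stood at 26.8, 27.3 and 23.9 CPM in EKO and at 26.2, 36.3 and 25.1 CPM in WT, the highest value being that of WT replicate 2. Rsph9, a cilium gene that overlaps Mrps18a, had 250 counts in that library against 19 to 60 in the others. Mrps18b averaged 13.4 ± 2.39 CPM in EKO and 13.2 ± 1.59 CPM in WT. Mrps18c had the lowest level of all 77 genes, at 1.89, 2.05 and 1.72 CPM in EKO and 1.53, 1.63 and 2.31 CPM in WT. The sign of the difference of Mrps18b and Mrps18c changed with the scaling. Per kilobase of the longest annotated transcript, as TMM-scaled CPM per kilobase (RPKM), Mrps18a averaged 31.2, Mrps18b 12.3 and Mrps18c 2.26 over the 6 libraries, so the order of the 3 levels was a over b over c.

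Among the large-subunit genes, Mrpl19 was the sole one with an unadjusted p under 0.05 that stood higher in EKO. It encodes the relative of bacterial L19, at the interface between the subunits, and lies on chromosome 6 from 81957851 to 81965958 (GRCm38, minus strand). Its levels were 19.8, 25.3 and 20.8 CPM in EKO and 11.9, 13.0 and 15.3 CPM in WT. The lowest EKO library lay above the highest WT library. The log2 difference was 0.71 ± 0.17 (SE), 1.63-fold higher in EKO, with an edgeR adjusted p of 0.0662. Over the alternatives the adjusted p ranged between 0.0149 with DESeq2 and 0.229 without WT replicate 1. Gcfc2, which overlaps Mrpl19 at fewer counts, differed by 0.44 ± 0.19 (SE) on the log2 scale in the same direction, also without overlap of the genotypes. How far the pair share reads was not tested.

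**Figure D2:**
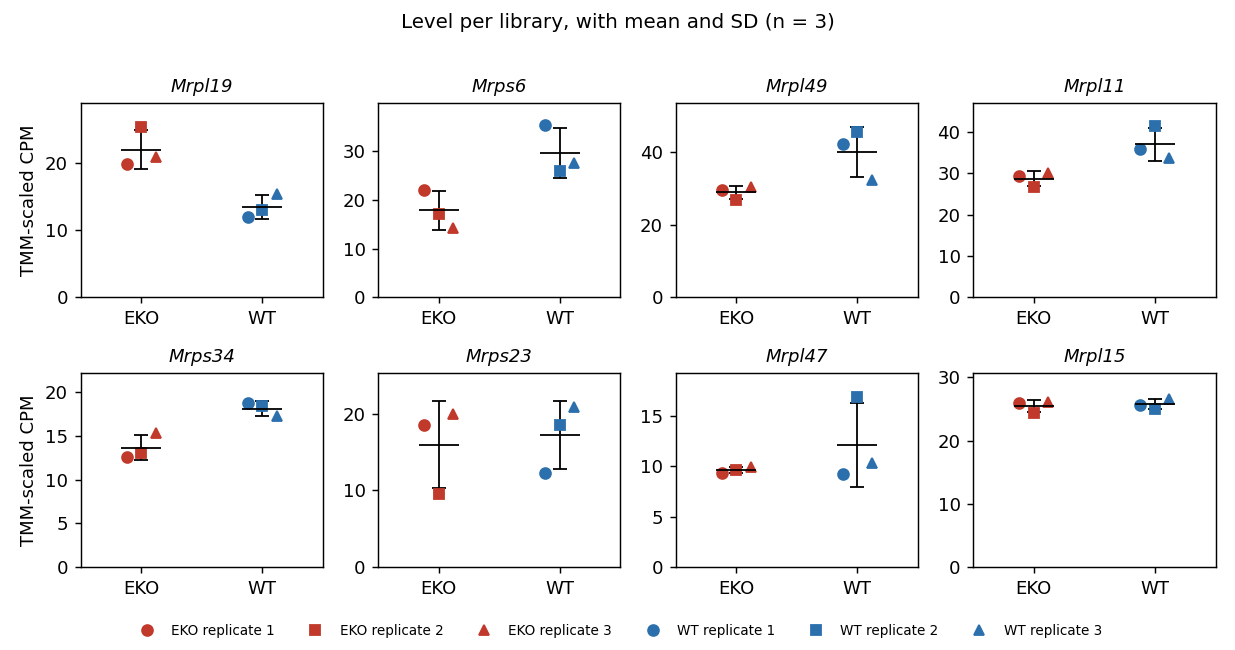
TMM-scaled CPM (y axis, from 0) in each library of EKO and of WT is shown for 8 genes, with lines for the mean and bars for the SD over 3 libraries. Mrpl19 is higher in EKO and Mrps6, Mrpl49, Mrpl11 and Mrps34 are lower without overlap; EKO replicate 2 stands apart in Mrps23 and WT replicate 2 in Mrpl47, and Mrpl15 is nearly level.

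Mrpl49 and Mrpl11 were the large-subunit genes farthest below 0. Mrpl49, a subunit without a bacterial counterpart, stood at 29.4, 26.9 and 30.3 CPM in EKO and at 42.1, 45.4 and 32.2 CPM in WT. The gap between the genotypes was narrow, set by EKO replicate 3 and WT replicate 3. Its log2 difference was -0.47 ± 0.15 (SE; edgeR adjusted p of 0.0976). Syvn1, which overlaps it, differed by 0.004 on the log2 scale. Mrpl11, the relative of the L11 protein at the site where translation factors bind, stood at 29.4, 26.7 and 30.1 CPM in EKO and at 35.9, 41.6 and 33.7 CPM in WT, again without overlap. Its log2 difference was -0.37 ± 0.12 (SE; edgeR adjusted p of 0.103), and no other listed gene overlaps it.

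In the authors' deposited table, 3392 of 16154 genes (21.0%) had an adjusted p under 0.05, and 4 of the 77 (5.19%) were among them. These were Mrpl19 at an adjusted p of 0.0149, Mrps6 at 0.0228, Mrpl11 at 0.0373 and Mrpl49 at 0.0395 in the authors' deposited table. Its significance mark, which 1637 genes (10.1%) carried, was set on 0 of the 77.

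The flexible stalk that recruits translation factors has a pair of proteins among these genes. Mrpl12, the relative of the L7/L12 stalk protein, which also binds the mitochondrial RNA polymerase, stood at 19.4, 21.8 and 21.2 CPM in EKO and at 21.0, 23.0 and 21.5 CPM in WT. The genotypes overlapped, and the log2 difference was -0.07 ± 0.12 (SE), close to 0. Mrpl10, which anchors it, stood at 31.6, 33.8 and 29.6 CPM in EKO and at 40.1, 37.6 and 33.8 CPM in WT, with a log2 difference of -0.23 ± 0.11 (SE; edgeR adjusted p of 0.208). All EKO values lay below all WT values, though EKO replicate 2 and WT replicate 3 were nearly equal. The start of Lrrc46 lies 153 bases from that of Mrpl10 on the other strand; it had 1071 counts in WT replicate 2 and 4 to 80 in the others.

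Further large-subunit genes were spread on both sides of 0. Mrpl3, whose human form is mutated in a mitochondrial heart disease, averaged 39.3 ± 1.89 CPM in EKO and 38.7 ± 2.94 CPM in WT (SD, n = 3 each), and Mrpl13 averaged 35.8 ± 4.27 CPM in EKO and 35.1 ± 2.63 CPM in WT. For both, the sign of the difference changed with the scaling. Mrpl44, which carries a ribonuclease III-like fold, averaged 20.7 ± 1.55 CPM in EKO and 18.4 ± 2.42 CPM in WT. Wdfy1, which starts 125 bases away on the other strand and overlaps it, averaged 69.0 ± 6.23 CPM in EKO and 33.8 ± 2.32 CPM in WT. Its log2 difference was 1.03 ± 0.11 (SE), beside 0.17 ± 0.16 (SE) for Mrpl44. Wdfy1 had 5320 counts over the 6 libraries against 2053 for Mrpl44, and how far the pair share reads was not tested.

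Mrpl43, a subunit without a bacterial counterpart, stood at 30.4, 33.1 and 29.6 CPM in EKO and at 28.1, 20.9 and 25.2 CPM in WT, without overlap, at a log2 difference of 0.33 ± 0.15 (SE; edgeR adjusted p of 0.174). Twnk, the mitochondrial DNA helicase, starts 116 bases away on the other strand and differed by -0.07 ± 0.19 (SE). Mrpl23, the relative of L23 at the exit of the peptide tunnel, averaged 29.4 ± 5.11 CPM in EKO and 23.6 ± 2.53 CPM in WT. EKO replicate 1 lay among the WT libraries. The processed pseudogene Mrpl23-ps1 is listed with 15, 23 and 39 counts in EKO and 12, 15 and 25 counts in WT, against 384 to 596 counts per library for Mrpl23, and how far the pair share reads was not tested. Mrpl52 and Mrpl4 stood at log2 differences of 0.26 ± 0.15 and 0.18 ± 0.10 (SE), and Mrpl51 at -0.30 ± 0.12 (SE). Mrpl51 was nearly constant in EKO, at 46.2, 44.5 and 45.5 CPM, against 53.1, 64.8 and 49.4 CPM in WT.

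Levels of the different genes can be compared only per length. In RPKM the 77 genes ran between 2.26 and 70.0 with a median of 16.2 (quartiles 7.40 and 26.1), and the medians were 17.1 for large-subunit and 12.5 for small-subunit genes. Mrpl20, an early-binding subunit of the large particle, led with 67.5 RPKM in EKO and 72.5 RPKM in WT. Mrps21 followed at 62.8 RPKM in EKO and 63.1 RPKM in WT, and Mrpl42 at 61.3 RPKM in EKO and 61.8 RPKM in WT. The difference between Mrps21 and Mrpl42 is smaller than their SDs over the 6 libraries of 5.06 and 3.74 RPKM, so their order is not resolved. At the low end, above Mrps18c, lay Mrpl47 at 2.87 RPKM in EKO and 3.61 RPKM in WT, Mrps25 at 3.55 RPKM in EKO and 3.03 RPKM in WT, and Mrpl19 at 4.39 RPKM in EKO and 2.69 RPKM in WT. These 3 have SDs over the 6 libraries of 0.885, 0.359 and 1.03 RPKM, and their order is not resolved. Mrpl17, which had many counts at 47.6 ± 3.89 CPM in EKO and 50.7 ± 3.75 CPM in WT, reached 6.73 RPKM because its longest transcript is long. Mrpl33, with few counts at 6.97 ± 0.811 CPM in EKO and 8.22 ± 1.98 CPM in WT, reached 15.9 RPKM. The ranking depends on the annotation: merged exons were longer than the longest transcript by a median factor of 1.37, and 5 genes were in the top 10 by both lengths. Mrps21, Mrpl42, Mrpl47 and Mrps25 were named after their levels were seen.

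Spread between libraries of a genotype was lower than for most genes in the same CPM range. The SD of log2 CPM within a genotype had a median of 0.15 (quartiles 0.11 and 0.20). It was 0.28 for the 9335 other genes with mean CPM in that range, and 71 of the 77 genes lay below that value. The other genes were not matched on level, with a median of 14.2 CPM against 23.7 CPM for the 77. The part of their lower counts in the wider spread was not tested. Other lists had a like median SD, among them translation factors (0.15), cytosolic ribosomal proteins (0.15) and assembly factors (0.16). Dispersions fitted by edgeR, which borrow from other genes, gave a median coefficient of variation of 21.1% for these genes and 28.3% for all genes tested. It was 16.1% for cytosolic ribosomal proteins and 17.6% for nuclear respiratory chain genes. The median SD of the 77 genes is only 1.11-fold, so these coefficients do not describe the spread of a list alone. Steadiest was Mrpl15, at 26.0, 24.3 and 26.0 CPM in EKO and 25.5, 25.1 and 26.6 CPM in WT, with an SD of 0.050. Mrps23 varied most, with an SD of 0.50, at 18.5, 9.49 and 19.9 CPM in EKO and 12.3, 18.6 and 20.9 CPM in WT. EKO replicate 2 and WT replicate 1 were low in it, and the genotypes overlapped. Mrpl47 and Mrpl39 stood out through 1 library: Mrpl47 had 16.9 CPM in WT replicate 2 and 9.21 to 10.3 CPM in the other 5, and Mrpl39 had 44.1 CPM there and 24.1 to 33.0 CPM in the others. Mrpl9 showed the same with 30.8 CPM in WT replicate 2 and 17.6 to 24.2 CPM elsewhere; Oaz3, a testis gene that overlaps it, had 2981 counts in that library and 0 to 141 in the others. Actl6a and Ndufb5 overlap Mrpl47. Ndufb5 had 31.4 CPM in WT replicate 2 and 19.0 to 24.5 CPM in the others, whereas Actl6a had 30.7 CPM there and 24.9 to 36.6 CPM elsewhere. Mrpl15, Mrps23, Mrpl47, Mrpl39 and Mrpl9 were chosen after their values were seen. The part of testis RNA and of shared reads in them was not tested.

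**Figure D3:**
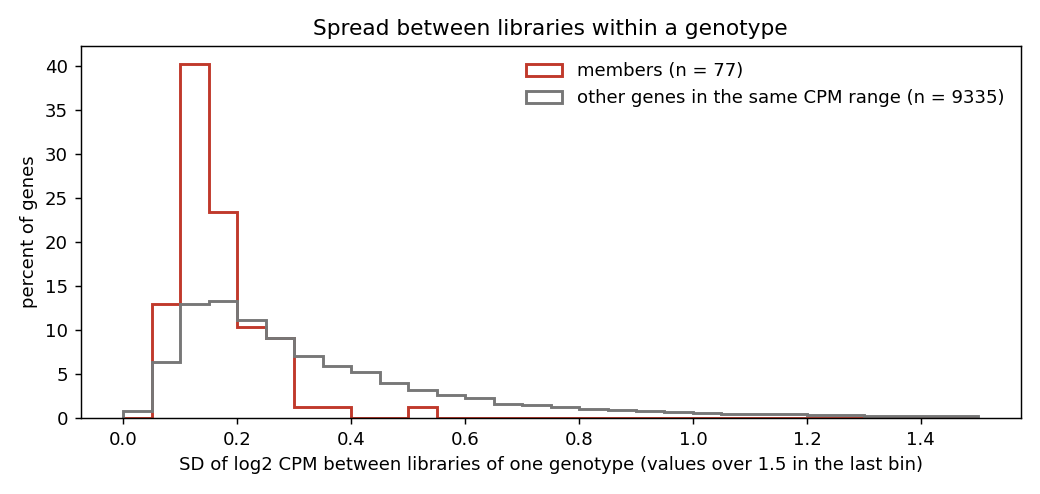
The share of genes in percent (y axis) is plotted by the SD of log2 CPM between libraries of a genotype (x axis), for the 77 genes in red and for 9335 other genes of the same CPM range in grey. The red outline is concentrated below 0.3, around its median of 0.15, while the grey one, with a median of 0.28, has a long tail.

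Overlap with other genes was common. Of the 77 genes, 36 overlap another listed gene, 28 overlap one with at least 60 counts over the 6 libraries, and 13 overlap one with more counts than their own. A protein-coding gene starts on the other strand within 1000 bases of 32 of them. Mrpl48 and Mrps36 also have listed processed pseudogenes, with 10 to 15 counts per library for Mrpl48-ps and 0 to 5 for those of Mrps36. Mrps36 is now known as a component of the 2-oxoglutarate dehydrogenase complex, and it averaged 19.7 ± 1.28 CPM in EKO and 20.4 ± 3.08 CPM in WT (SD, n = 3 each). Mrpl58, a peptidyl-tRNA hydrolase that became a ribosomal subunit, averaged 12.1 ± 0.938 CPM in EKO and 12.2 ± 1.70 CPM in WT.

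Genes that work with the mitochondrial ribosome were described from lists, with no test over a list. At an edgeR adjusted p under 0.05, 0 of all 16121 genes were called (0.0%), so each of these lists necessarily had 0 as well. Of 5 tested subunits with other names, 2 were below 0 and 3 above (median log2 0.02). Dap3, the GTP-binding small-subunit protein, stood at 35.7, 40.0 and 41.8 CPM in EKO and at 47.4, 67.4 and 43.6 CPM in WT, without overlap, at a log2 difference of -0.43 ± 0.18 (SE). Translation factors were divided, 7 below and 6 above 0 with a median of -0.004. Guf1, a GTPase that binds mitochondrial ribosomes, differed by 0.35 ± 0.12 (SE), and the ribosome recycling factor gene Mrrf by -0.44 ± 0.16 (SE).

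Assembly factors of the mitochondrial ribosome leaned lower, 19 of 27 below 0 with a median of -0.23. Mtg1, a GTPase of large-subunit assembly, stood at 15.2, 13.4 and 14.5 CPM in EKO and at 22.9, 20.9 and 21.3 CPM in WT. The genotypes were well apart, with a log2 difference of -0.60 ± 0.13 (SE) and an edgeR adjusted p of 0.0630. The pseudouridine synthase genes differed in direction, Trub2 at -0.52 ± 0.14 and Rpusd4 at 0.43 ± 0.15 (SE). Of 20 mitochondrial aminoacyl-tRNA synthetases 16 were below 0 (median -0.22), with Iars2 at 94.7 ± 4.00 CPM in EKO and 117 ± 21.4 CPM in WT. Of 13 genes of mitochondrial DNA replication and transcription 9 were below 0 (median -0.07); Polg, the DNA polymerase, averaged 51.8 ± 1.37 CPM in EKO and 63.4 ± 3.14 CPM in WT. Of 9 regulators of mitochondrial biogenesis 7 were above 0 (median 0.12), among them Pprc1 at 54.7 ± 10.7 CPM in EKO and 35.3 ± 11.4 CPM in WT. The medians of the assembly factors and the synthetases lay farther from 0 than the -0.11 of the ribosomal proteins.

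**Figure D4:**
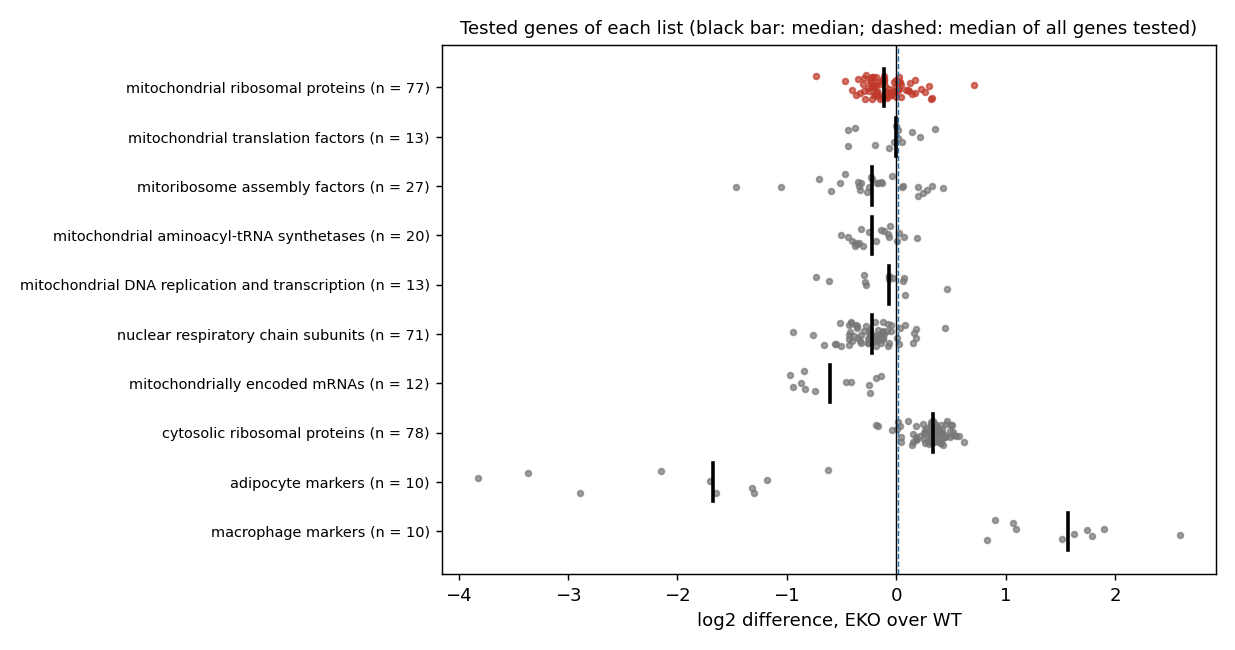
Each point is the log2 difference between EKO and WT (x axis) of a tested gene, grouped by list (y axis), with a black bar for the list's median and a dashed line for the median of all genes tested. The mitochondrial ribosomal proteins, in red, cluster just below 0 at -0.11, nuclear respiratory chain genes lie at -0.22, cytosolic ribosomal proteins at 0.34, and adipocyte and macrophage markers reach -1.68 and 1.57.

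All 12 tested mitochondrially encoded messages, which this ribosome translates, were below 0, with a median log2 difference of -0.60. Of the 12, 3 had an unadjusted edgeR p under 0.05, a larger share than the 13.8% of all genes that did as lower. In 4 of the 12 every EKO library lay below every WT library, also a larger share than the 17.7% of all genes. Their summed level was 24180, 19071 and 19170 CPM in EKO and 29478, 42154 and 22858 CPM in WT. EKO replicate 1 lay above WT replicate 3, so the sums overlapped, and WT replicate 2 was the highest. mt-Nd6 averaged 212 ± 47.6 CPM in EKO and 416 ± 177 CPM in WT, without overlap and with a wide WT spread. Nuclear genes of the respiratory chain were below 0 in 62 of 71 cases, with a median of -0.22, and 19 of the 71 had an unadjusted edgeR p under 0.05 as lower, where 13.8% of all genes did. Ndufv3, a complex I subunit gene, averaged 45.5 ± 6.33 CPM in EKO and 77.2 ± 10.1 CPM in WT. The summed level of the ribosomal proteins was 0.314, 0.330 and 0.319 of that of the nuclear respiratory chain genes in EKO replicates 1, 2 and 3, against 0.287, 0.271 and 0.311 in WT replicates 1, 2 and 3, with no overlap. Relative to the mitochondrially encoded messages it was 0.0764, 0.0989 and 0.0999 in EKO and 0.0684, 0.0513 and 0.0817 in WT, with overlap.

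Cytosolic ribosomal proteins stood on the other side of 0. Of 78 tested genes, picked by their names after the other lists, 75 were above 0 with a median of 0.34, and 37 had an unadjusted edgeR p under 0.05 as higher, where 18.9% of all genes did. Rpl19 averaged 92.8 ± 6.07 CPM in EKO and 69.0 ± 5.48 CPM in WT. The summed mitochondrial level was 0.101, 0.0870 and 0.0878 of the cytosolic one in EKO and 0.133, 0.140 and 0.104 in WT, so every EKO ratio was below every WT ratio, EKO replicate 1 and WT replicate 3 being close. Both ratios move with the other list as well as with the mitochondrial ribosomal genes, whose own TMM-scaled sums overlapped.

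**Figure D5:**
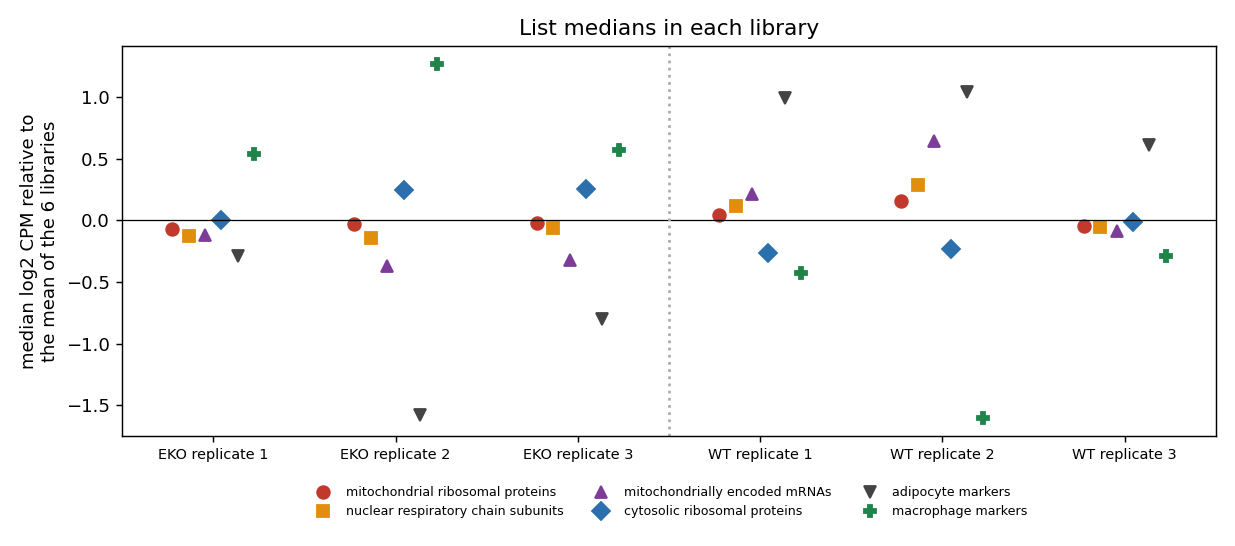
The median log2 CPM of 6 lists relative to the mean of the 6 libraries (y axis) is shown for each library (x axis), EKO replicates on the left and WT replicates on the right of the dotted line. Mitochondrial ribosomal proteins, as red circles, stay between -0.07 in EKO replicate 1 and 0.16 in WT replicate 2, while adipocyte markers range between -1.58 in EKO replicate 2 and 1.04 in WT replicate 2.

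By library, the median of the ribosomal proteins relative to the mean of the 6 libraries was -0.07, -0.03 and -0.02 on the log2 scale in EKO replicates 1, 2 and 3. In WT replicates 1, 2 and 3 it was 0.05, 0.16 and -0.05. WT replicate 3 lay among the EKO libraries. The same order of the WT libraries held for nuclear respiratory chain genes, at 0.11, 0.28 and -0.06, and for mitochondrially encoded messages, at 0.21, 0.64 and -0.09. Adipocyte markers stood at -0.29, -1.58 and -0.80 in EKO and at 0.99, 1.04 and 0.61 in WT, also with that order of the WT libraries. Macrophage markers stood at 0.54, 1.27 and 0.57 in EKO and at -0.43, -1.60 and -0.29 in WT, the reverse order. EKO replicate 2, with the fewest adipocyte and most macrophage transcripts, stood at -0.03 for the ribosomal proteins after TMM scaling. Without that scaling it had their lowest share of raw counts, 0.171%. The part of cell makeup in the level of these genes was not tested.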

How the data were processed

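The authors deposited 1 table with raw read counts for the 6 libraries (bulk mRNA-seq of 3 EKO and 3 WT samples), per the file headers. Per the file headers, it also holds values computed by the authors: a mean signal per gene, a fold change (ratio) with its log2, and raw and adjusted p-values. Per the submitters' processing notes, the build was GRCm38. Aligner, counter and strand setting: not given in the sources used here.

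Groups follow the labelled genotype. Counts were tested with the edgeR 4.0.16 quasi-likelihood F test (R 4.3.3) after filterByExpr (minimum count 10) and TMM scaling, fitted on genotype alone, with Benjamini-Hochberg adjustment over all 16121 genes. Errors are SD over 3 libraries or SE of the log2 difference, and intervals are 95%. RPKM divide scaled counts by the longest GENCODE transcript. Alternatives were other scalings, other count filters, DESeq2 1.42.0, limma-voom (limma 3.58.1), a replicate block and each library left out in turn. The fits were tested on simulated data.

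Genes were named by a rule: the 5 with the smallest p each way, the 3 with the most counts of each subunit, the 3 with the fewest counts, the Mrps18 family, 9 genes of known role, and the 3 smallest p of each other list. Others are said to be chosen after their values were seen; neighbours, pseudogenes, Mrps36 and Mrpl58 also fall outside it. The 77 genes and the lists were chosen with earlier results of these data known.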

Additional observations from a re-analysis of the deposited data

How the results depend on the processing

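The edgeR call of 0 genes and 0 of the 77 mitochondrial ribosomal protein genes held for the other scalings, count filters, limma-voom and the replicate block. It did not hold for DESeq2 (3392 genes, 21.0%, and 4 of the 77, 5.19%) or limma-voom with sample quality weights (4101 genes, 25.4%, and 2 of the 77, 2.60%), nor over all genes without WT replicate 2 (443 genes, 2.69%); the cause was not tested. With each library left out in turn, 0 to 443 genes and 0 of the 77 were called. The median log2 difference of the 77 was -0.1598 to -0.0461 with each library left out (-0.0461 without EKO replicate 1), -0.0426 with sample quality weights, -0.2023 with library totals, -0.1988 with upper-quartile factors and -0.1986 with 10 counts in every library, against a main value of -0.11; the cause was not tested. Without a count filter it was -0.14, above the -0.21 of all 32244 genes, whereas it lay below the median of all genes tested in the other settings. The number of the 77 below 0 was 49 to 66 over all settings and 50 to 63 with each library left out. The counts of genes without overlap, recomputed with each library left out by a choice made after seeing the data, were 13 to 28 with EKO below WT and 6 to 9 with EKO above WT, where 19.7% to 23.7% of all genes had EKO below WT and 27.0% to 31.1% had EKO above WT. Without EKO replicate 3 they were 19 below (24.7% of the 77, 23.4% of all genes). They were 28 below without WT replicate 3 (36.4% and 23.6%) and 9 above without EKO replicate 1 (11.7% and 30.2%).

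The replicate block gave a median of -0.107, with 55 of the 77 below 0, and called 0 genes. Between the deviations from the genotype means, r was 0.26, -0.31 and -0.36 for libraries with the same number (1, 2 and 3). For libraries with unlike numbers it ranged between -0.35 and 0.45. With 3 libraries per genotype these values cannot decide whether the numbers mark pairs. The labels do not state pairs, and the main fit took none.

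Log2 differences near 0 changed sign. With library totals, upper-quartile factors, DESeq2 size factors and 10 counts in every library, in that order, they were -0.0675, -0.0626, -0.0171 and -0.0626 for Mrpl13, -0.0773, -0.0713, -0.0235 and -0.0691 for Mrpl3, -0.0582, -0.0502, -0.0009 and -0.0461 for Mrps17, -0.0818, -0.0728, -0.0225 and -0.0683 for Mrps18b, and -0.0618, -0.0504, -0.0008 and -0.0458 for Mrps18c. DESeq2 gave -0.007, -0.0133 and -0.0121 for Mrpl13, Mrpl3 and Mrps18b, and no count filter -0.0049, -0.0136 and -0.0183. Sample quality weights gave -0.0088 for Mrpl3, -0.1769 for Mrps18b and 0.0227 for Mrps15. With each library left out, Mrpl13 ranged between -0.0493 and 0.1321, Mrpl3 between -0.0376 and 0.0599, Mrps17 between -0.0108 and 0.1115, Mrps18b between -0.1497 and 0.1256, and Mrps18c between -0.0909 and 0.2629. Precision is limited by 3 libraries per genotype and, for Mrps18c, by as few as 27 counts in a library.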
